A study of Rattus norvegicus with 23 samples.

Results

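MicroRNA levels in rat mammary carcinomas that arose without irradiation were compared with those in normal mammary tissue. The comparison takes in 15 of the 23 arrays of the series, 8 of spontaneous carcinomas and 7 of normal mammary tissue, chosen by the tissue named in the sample labels. The other 8 arrays are of radiation-induced carcinomas. All samples are from female Sprague-Dawley rats, an outbred strain, with no transgene and, for both groups compared here, no treatment named in the labels. Ages and estrous stage are not given in the sources used here. The carcinomas carry codes that begin with K (spontaneous carcinomas 1 to 5) or M (6 to 8), with a different animal number for each of the 8. For the 7 normal tissues no animal is named, so the spread between them, and with it the p-values, may be technical in part.

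A miRNA is a short RNA that guides a silencing complex to messenger RNAs, mostly by pairing of its seed, bases 2 to 8 from its 5′ end, with sites in them. miRNAs that share a seed can share targets, and many miRNA genes lie in clusters that are transcribed together. In tumours the miR-17 to miR-92a cluster, a target of Myc, is known for promoting proliferation. Other miRNAs are best known as products of one cell type, such as miR-126 of endothelial cells, the miR-200 family of epithelial cells and miR-150 of lymphocytes. Those measured in a whole tissue therefore report on its cell makeup as well as on regulation within its cells.

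The miRNAs on which the comparison turns are printed below as RefSeq gives them for the GRCr8 assembly, 5′ to 3′ with the seed in capitals, because the results divide partly along seeds and partly across them. Of 39 sequences looked for, 36 were in the table. The array names most of them without an arm, and the arm was taken from general knowledge of which arm that name has meant. The first 4 share the seed AAAGUGC and lie in 2 paralogous clusters, on chromosomes 15 and 12.
miR-17-5p: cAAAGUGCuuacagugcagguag
miR-20a: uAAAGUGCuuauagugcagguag
miR-93: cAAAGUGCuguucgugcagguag
miR-106b: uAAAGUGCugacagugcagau
miR-18a differs from them within the seed, and miR-19a, miR-92a and miR-25 of the same clusters carry other seeds.
miR-18a: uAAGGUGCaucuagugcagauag
miR-19a: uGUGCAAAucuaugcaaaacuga
miR-92a: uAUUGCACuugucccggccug
miR-25: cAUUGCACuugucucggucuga
The next 4 share the seed AGCAGCA. The genes of miR-15b and miR-16 lie on chromosome 2, and those of miR-195 and miR-497 on chromosome 10.
miR-15b: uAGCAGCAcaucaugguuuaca
miR-16: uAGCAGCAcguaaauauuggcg
miR-195: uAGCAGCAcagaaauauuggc
miR-497: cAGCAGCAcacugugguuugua
A pair with the seed ACCCGUA and a pair with the seed AGUGCAA are shown because their members did not move alike.
miR-99b: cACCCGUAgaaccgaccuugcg
miR-100: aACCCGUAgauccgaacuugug
miR-130b: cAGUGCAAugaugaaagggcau
miR-130a: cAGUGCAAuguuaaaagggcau
The last set holds the miRNAs of the Hox gene clusters, which gave the largest falls. As RefSeq lists them miR-10b begins further into the shared sequence than miR-10a-5p, so that their bases 2 to 8 are not the same letters, while miR-196a, miR-196b and miR-196c share the seed AGGUAGU.
miR-10a-5p: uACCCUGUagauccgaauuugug
miR-10b: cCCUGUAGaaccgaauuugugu
miR-196a: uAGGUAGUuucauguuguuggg
miR-196b: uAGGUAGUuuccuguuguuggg
miR-196c: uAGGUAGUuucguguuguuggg

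The spontaneous carcinoma arrays were dimmer than the normal ones. They detected 154 to 174 of 350 miRNAs, against 180 to 212 in normal tissue, and their 75th percentile of signal before scaling ran from 335 to 936, against 960 to 2494 (exact two-sided permutation p = 0.000155 for each, before and after adjustment over the 2 measures). Neither measure overlapped between the groups. The epithelial miR-200 family was detected in 7 of 8 carcinomas and all 7 normal tissues. Summed over its 5 members, the scaled signal had a lowest, median and highest value of 49.1, 17908 and 26676 in carcinomas, against 3442, 7749 and 10797 in normal tissue. The lowest value is that of spontaneous carcinoma 1, where all 5 members lay at the floor that stands for no measurable signal. In the test described below none of the 5 members passed, with a median log2 difference of 0.29. None passed without spontaneous carcinoma 1 either, with a median of 1.44. That carcinoma also had miR-205 and miR-375, of epithelial lineages, at the floor, but detected miR-203 of the same list, at 4.71, the lowest of the 8 carcinomas. Its mean correlation with the other carcinomas was 0.639, while that of the other 7 ran from 0.876 to 0.907. It stayed in the comparison, and results are also given without it.

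Of the 350 miRNAs on the array, 199 were detected on at least 7 of the 23 arrays and were tested with limma, a linear model with a shared estimate of the spread. Levels are scaled intensities on the log2 scale, a difference of 1 is 2-fold, and differences are given ± their standard error (SE). At a Benjamini-Hochberg adjusted p under 0.05, 81 miRNAs (40.7%) differed, 52 of them higher (26.1%) and 29 lower (14.6%) in spontaneous carcinomas. At least 1 log2 unit separated the groups for 31 of the higher and 21 of the lower ones. For 31 of the 199 miRNAs (15.6%) the groups did not overlap, 20 with every carcinoma above every normal tissue (10.1%) and 11 with every carcinoma below (5.53%). The K-coded and the M-coded carcinomas each had the direction of the whole group for all 81. Both sets went into choosing the 81, so this is no separate support. Without spontaneous carcinoma 1, 91 passed, 78 of them among the 81.

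How the 81 divide into higher and lower depended on how arrays of unequal brightness were scaled. The median of all 199 differences was 0.23, and with arrays centred on their median miRNA 27 were higher and 53 lower. The split was 25 and 57 when the percentile was taken over all probes, 29 and 43 after quantile normalization, 123 and 22 after a normexp background correction, 4 and 112 with no scaling, and 4 and 104 in the deposited value table. Under 4 other scalings that bring the arrays to a common level, 48 of the 81 passed in the same direction each time, 22 higher and 26 lower. Among them were 11 of the 12 largest rises and all 12 of the largest falls. The normexp correction is not among these 4. With it 74 of the 81 kept their direction and 7 changed sign, including miR-335 (0.11) and miR-126* (0.28) of the 12 largest falls. With array brightness as a covariate only 4 passed (34 at an unadjusted p under 0.05), although 79 of the 81 kept their direction. With the floor raised to 4.89, the highest detection limit of any array, 63 of the 81 passed, and the differences of the dimmest miRNAs shrank. No carcinoma array was as bright as any normal one, so that brightness and tissue cannot be told apart here. Fitted with slide as a block, 78 passed, 76 of them among the 81. Slides 1, 2 and 4 hold 2, 3 and 3 of the spontaneous carcinomas and 2, 2 and 1 of the normal tissues. Within slide 2 limma called 28, and within slides 1 and 4 it called 0 (33 and 18 at an unadjusted p under 0.05). Within these slides 81, 79 and 80 of the 81 had the direction of the whole comparison, though the same arrays went into choosing the 81.

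**Figure D1:**
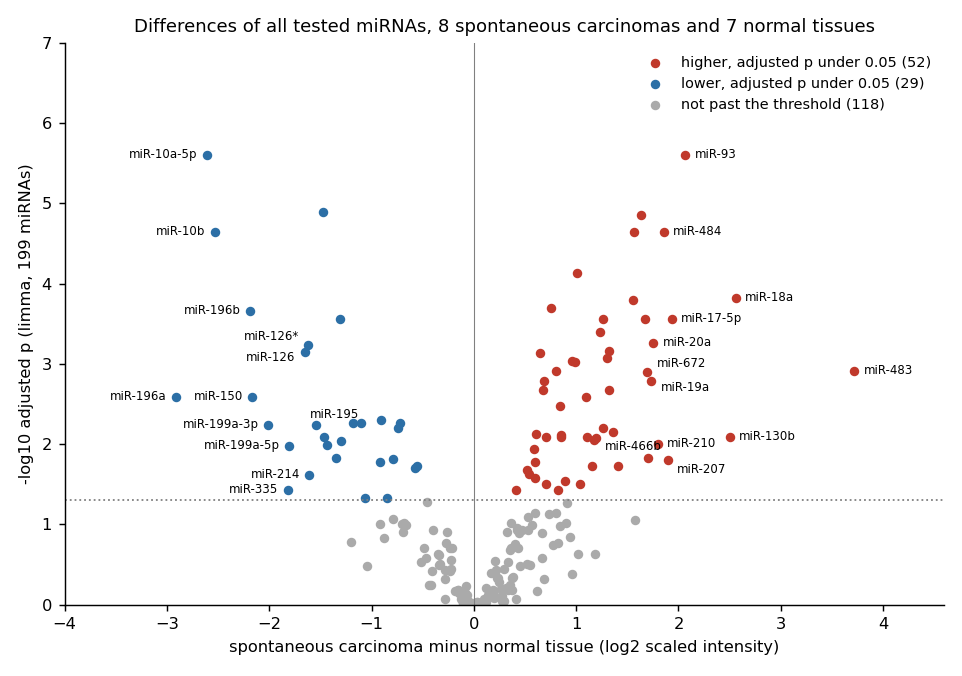
Difference of each of the 199 tested miRNAs on the log2 scale (horizontal) against -log10 of its adjusted p in limma (vertical), with the 12 largest rises and 12 largest falls past the threshold named. The dotted line is the adjusted p of 0.05. There were 52 miRNAs above the line to the right and 29 to the left, and miR-93 and miR-10a-5p stood highest.

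The miR-17 to miR-92a cluster and its paralogue, miR-106b to miR-25 in an intron of the replication gene Mcm7, were higher in spontaneous carcinomas. Of 8 tested miRNAs of the first and its X-linked paralogue, 7 rose and 0 fell, with a median difference of 1.55. All 3 of the second rose, with a median of 1.57. Over all miRNAs tested 26.1% rose, and the median was 0.23. Every carcinoma lay above every normal tissue for 4 of the 8 and all 3, against 10.1% over all miRNAs tested. miR-93 had a lowest, median and highest level of 8.96, 9.79 and 10.57 in carcinomas, against 7.06, 7.64 and 8.31 in normal tissue. The groups did not overlap, and the difference was 2.07 ± 0.25 (SE, limma adjusted p = 2.47e-06, 4.19-fold). miR-17-5p, the namesake of the cluster, lay at 8.20, 9.36 and 11.04 in carcinomas, against 6.92, 7.49 and 8.0 in normal tissue, again without overlap (1.94 ± 0.36, adjusted p = 0.000278).

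miR-18a had the largest rise of the cluster, 2.56 ± 0.44 (limma adjusted p = 0.000153), with levels of 6.58, 7.85 and 10.33 in carcinomas, against 4.78, 5.45 and 6.04 in normal tissue. Every carcinoma lay above every normal tissue, and the highest was spontaneous carcinoma 1. Without it the difference was 2.22. miR-20a rose by 1.75 ± 0.35 and miR-19a by 1.73 ± 0.40, also without overlap, and miR-92a and miR-19b by 1.36 ± 0.38 and 1.18 ± 0.34 with overlap. miR-20a*, from the other arm of the miR-20a hairpin, rose by 1.32 ± 0.31 (0.52 with the raised floor). miR-363, of that paralogue, was detected in 2 of 8 carcinomas and 4 of 7 normal tissues (0.66 ± 0.47, adjusted p = 0.264).

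In the second cluster miR-106b averaged 10.66 ± 0.39 in carcinomas (SD, n = 8) and 9.09 ± 0.39 in normal tissue (SD, n = 7), and miR-25 averaged 10.16 ± 0.41 and 8.93 ± 0.35. Neither overlapped between the groups, and their adjusted p in limma were 2.27e-05 and 0.000399. miR-32, which shares the seed of miR-92a and miR-25 but lies elsewhere in the genome, rose by 1.30 ± 0.28, but not with the raised floor (0.18, adjusted p = 0.129). miR-17-5p, miR-20a, miR-93 and miR-106b, with the seed AAAGUGC, and miR-19a and miR-19b, with GUGCAAA, thus passed in the same direction. With the seed AUUGCAC, miR-92a, miR-25 and miR-32 passed, while miR-363, whose 3p arm carries it too, did not. On the unscaled signal the order of the groups was turned for miR-25 (-0.12) and miR-19b (-0.17), as it was in the deposited value table (-0.060 and -0.11). The medians of both clusters stayed positive there, at 0.24 and 0.22 unscaled.

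Within slides 1, 2 and 4 the median difference of the first cluster, with its paralogue, was 2.45, 1.83 and 0.57, and that of the second 2.10, 1.82 and 0.80. Slides 1 and 2 hold the K-coded carcinomas and slide 4 the M-coded ones, so slide and code cannot be told apart. The slide 4 differences are set against 1 normal tissue, number 7. It was the highest normal tissue for miR-93 (8.31), miR-106b (9.58) and miR-25 (9.34), the tested miRNAs of the second cluster. The K-coded carcinomas were the higher ones. miR-17-5p averaged 9.77 in them and 8.70 in the M-coded ones, and miR-20a averaged 11.48 and 10.44. Without spontaneous carcinoma 1 the medians were 1.32 and 1.47, and the same number of members passed in each list.

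**Figure D2:**
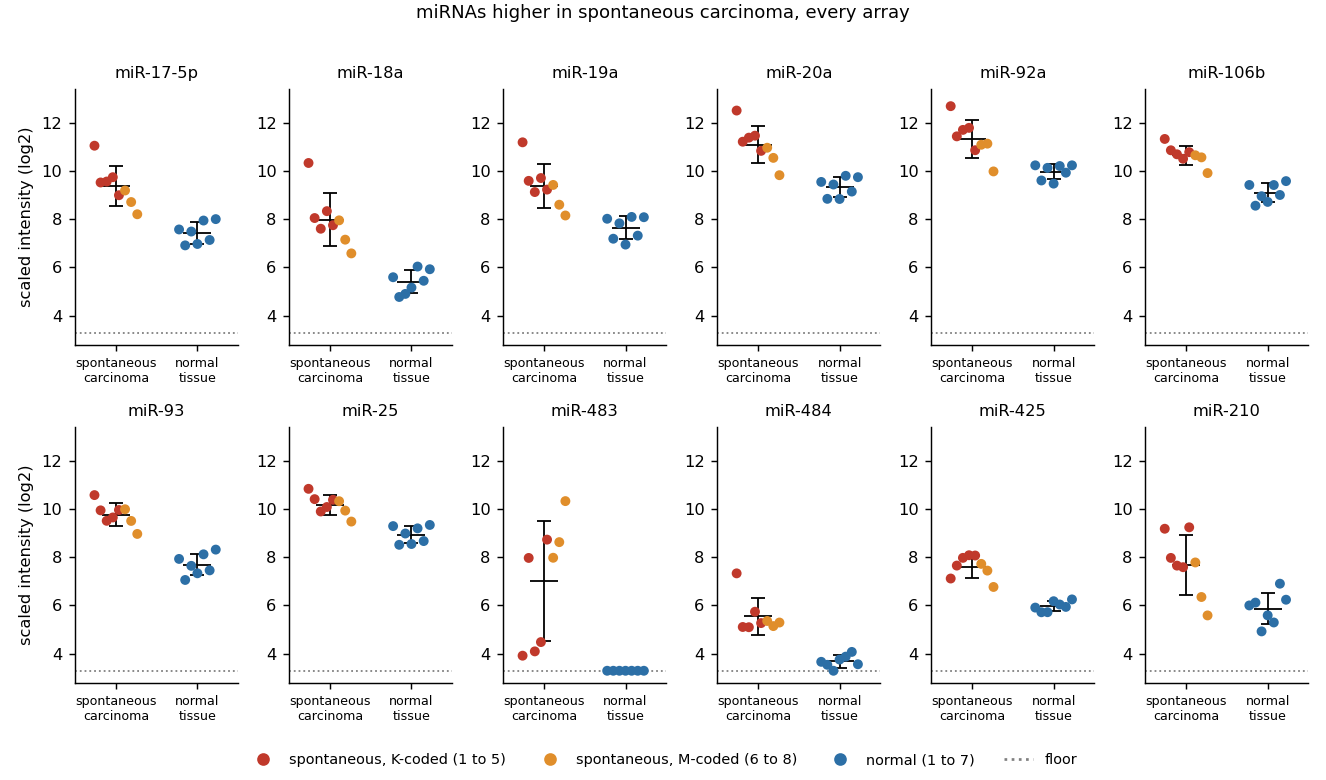
Scaled intensity (log2) on every array for 12 miRNAs that were higher in spontaneous carcinomas, with carcinomas on the left (red K-coded, orange M-coded) and normal tissues on the right (blue). Bars are the mean ± SD, and the dotted line is the floor. The carcinomas lie above every normal tissue in 10 panels and overlap with them for miR-92a and miR-210.

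miR-483 had the largest rise of all. It lies in an intron of Igf2, the gene of an embryonic growth factor. It was well above background in 6 of 8 carcinomas and in 0 of 7 normal tissues, all of which lay at the floor of 3.30. The 8 carcinomas had 3.92, 7.97, 4.10, 4.48, 8.73, 7.98, 8.62 and 10.32, in the order of their numbers. The fitted level was 13.2-fold higher in carcinomas (3.72 ± 0.83, limma adjusted p = 0.00123). It is no lower bound, since the carcinoma mean includes numbers 1 and 4, which were not well above background. Of the carcinomas 5 were high and 3 lay close to the floor, and these 3 are all K-coded. The M-coded carcinomas averaged 8.97 and the K-coded ones 5.84. The call held without spontaneous carcinoma 1 (difference 4.16) and with the raised floor (2.40, adjusted p = 0.0101).

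miR-484 had levels of 5.10, 5.28 and 7.33 in carcinomas, against 3.30, 3.67 and 4.08 in normal tissue (1.86 ± 0.27, limma adjusted p = 2.27e-05). Its groups did not overlap, and the highest carcinoma was again number 1. The difference was smaller, though it passed, with the raised floor (0.65) and with the mean of all its probes (0.96). miR-210, which cells induce under low oxygen, had 5.59, 7.72 and 9.24 in carcinomas, against 4.93, 6.00 and 6.90 in normal tissue (1.80 ± 0.54, adjusted p = 0.01), and 7 of 8 carcinomas lay above the normal mean. Its K-coded carcinomas averaged 8.32 and its M-coded ones 6.57, and within slides 1, 2 and 4 the difference was 2.51, 2.90 and 0.34.

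Among the 12 largest rises were also miR-672 (1.70 ± 0.38), miR-466b (1.70 ± 0.54) and miR-207 (1.90 ± 0.61). miR-672 lay above the normal mean in 8 of 8 carcinomas, though normal tissue 3, at 8.11, overlapped with them. miR-466b was at -0.033 with array brightness as a covariate. miR-207 was well above background in 5 of 8 carcinomas and 1 of 7 normal tissues, and did not pass with the raised floor (0.90, adjusted p = 0.108). Outside the 12, and chosen after the values were seen, miR-425 had a difference of 1.64 ± 0.23 with an adjusted p of 1.42e-05, and its carcinomas, at 6.77 to 8.08, lay clear of the normal tissues at 5.72 to 6.25. miR-340-5p and miR-340-3p, the arms of 1 hairpin, rose by 1.56 ± 0.27 and 1.32 ± 0.27 (miR-340-3p by 0.73 with the raised floor).

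The miRNAs encoded within the Hox gene clusters, which set position along the body axis, were lower in spontaneous carcinomas. Of 5 tested members 4 fell and 0 rose, with a median difference of -2.53, and for these 4 every carcinoma lay below every normal tissue. Over all miRNAs tested 14.6% fell, and 5.53% had every carcinoma below every normal tissue. miR-10a-5p, of the Hoxb cluster, had levels of 5.90, 6.64 and 7.71 in carcinomas, against 9.06, 9.32 and 9.92 in normal tissue (-2.61 ± 0.31, limma adjusted p = 2.47e-06). miR-10b, of the Hoxd cluster, had 6.92, 8.15 and 9.61 in carcinomas, against 10.55, 10.75 and 11.07 in normal tissue (-2.53 ± 0.37, adjusted p = 2.27e-05). Both were detected on all 15 arrays.

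miR-196a was detected in 2 of 8 carcinomas and 7 of 7 normal tissues. Its levels were 3.30, 3.33 and 5.26 in carcinomas, against 6.31, 6.79 and 7.14 in normal tissue (-2.91 ± 0.71, limma adjusted p = 0.00261). miR-196b was detected in 4 of 8 carcinomas and 7 of 7 normal tissues (-2.19 ± 0.40, adjusted p = 0.000220). For these 2 the carcinoma level is partly set by the floor, and with the raised floor they were at -1.80 and -1.43 and passed. miR-196c, with the same seed, was at -0.88 ± 0.48 (adjusted p = 0.149) and had the opposite sign with the normexp background (0.51). The list's median was -2.30, -2.44 and -2.32 within slides 1, 2 and 4, and -2.54 without spontaneous carcinoma 1.

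Endothelial miRNAs were also lower. Of 4 tested, 3 fell and 0 rose, with a median of -1.55, and the 3 did not overlap between the groups. Over all miRNAs tested 14.6% fell, and 5.53% lay lower in carcinomas without overlap. miR-126, encoded in the endothelial gene Egfl7, had levels of 8.22, 9.22 and 9.93 in carcinomas, against 10.39, 10.85 and 11.17 in normal tissue (-1.65 ± 0.34, limma adjusted p = 0.000704). miR-126*, the other arm of its hairpin, fell by 1.62 ± 0.33 (0.66 with the raised floor). miR-139-5p was detected in 0 of 8 carcinomas and 7 of 7 normal tissues, at least 1.69-fold lower (adjusted p = 1.30e-05), and did not pass with the raised floor (-0.20, adjusted p = 0.0556). miR-139-3p, from the opposite arm, was at 0.28 ± 0.68 (adjusted p = 0.783), with its sign turned under several settings. For miR-126* and miR-139-5p, both dim, the sign was turned with the normexp background (0.28 and 0.42). The summed scaled signal of the 4 ran from 472 to 1157 in carcinomas, with a median of 972, against 1686 to 2515 in normal tissue, with a median of 2031. In whole tissue, fewer cells of a type and less of the RNA per cell cannot be told apart.

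Of the miRNAs abundant in mesenchymal cells, 4 of 6 fell and 0 rose, with a median of -1.23, where 14.6% fell over all miRNAs tested. miR-199a-3p had levels of 7.98, 9.73 and 11.82 in carcinomas, against 11.43, 11.70 and 12.31 in normal tissue (-2.01 ± 0.54, limma adjusted p = 0.00578). The groups overlapped only through spontaneous carcinoma 1, the highest of the carcinomas. miR-199a-5p (-1.80 ± 0.54) and miR-214 (-1.61 ± 0.56), which are made from the same precursor transcript, were also highest in spontaneous carcinoma 1, and all 3 were lower still without that carcinoma (-2.30, -2.08 and -1.92). miR-22, which passed with all 15 arrays (-0.85 ± 0.34, adjusted p = 0.0465), did not without it (-0.55, adjusted p = 0.0662), nor without any 1 of several other arrays. miR-152 (-0.79 ± 0.36) and miR-22* (-0.34 ± 0.27) did not pass. The summed signal ran from 2795 to 7110 in carcinomas, against 8393 to 12597 in normal tissue, without overlap.

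Of 6 leukocyte miRNAs 3 fell and 0 rose, with a median of -0.75, where 14.6% fell over all miRNAs tested. miR-150, abundant in mature lymphocytes, had levels of 3.55, 6.73 and 8.20 in carcinomas, against 8.18, 8.68 and 8.87 in normal tissue (-2.17 ± 0.53, limma adjusted p = 0.00261). miR-223, abundant in myeloid cells, fell by 1.35 ± 0.43. miR-146a, induced by inflammatory signals, fell by 1.06 ± 0.42, but not without spontaneous carcinoma 1 (adjusted p = 0.0698) or any 1 of several other arrays. The relative miR-146b was at 0.38 ± 0.61 with all arrays and at 1.00 without that carcinoma, when it passed (adjusted p = 0.0245). The defining pan-leukocyte miRNAs miR-142-3p and miR-142-5p were at -0.44 ± 0.54 and -0.42 ± 0.54, and at -0.016 and -0.0088 without it. The summed signal overlapped, from 356 to 5518 in carcinomas, against 2711 to 5972 in normal tissue.

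Striated muscle lies beneath the mammary fat pad. Of its 4 tested miRNAs 2 fell, with a median of -0.57, where 14.6% fell over all miRNAs tested. miR-133b was at -1.44 ± 0.43 (limma adjusted p = 0.0103), detected in 2 of 8 carcinomas and 7 of 7 normal tissues. It was higher in carcinomas with the normexp background (0.22) and within slide 4 (0.89), which holds 1 normal tissue. miR-499 was at -0.72 ± 0.19 and was also positive with that background (0.57). With the raised floor neither passed. miR-1 (-0.41 ± 0.36) and miR-206 (0.82 ± 0.47) did not pass. Normal mammary gland is rich in fat. Of 8 miRNAs abundant or induced in adipocytes, 2 rose and 2 fell, with a median of -0.36, where 26.1% rose and 14.6% fell over all miRNAs tested. miR-103 and miR-107, which share a seed, rose by 0.53 ± 0.18 and 0.61 ± 0.17, though on the unscaled signal they were at -0.82 and -0.74. miR-193 fell by 0.79 ± 0.25 and miR-335, of the imprinted gene Mest, by 1.82 ± 0.69, with miR-335 detected in 1 of 8 carcinomas and not past the threshold with the raised floor (-0.69, adjusted p = 0.359). The summed signals of these 2 lists overlapped, at 46.8 to 174 in carcinomas and 62.9 to 358 in normal tissue for striated muscle, and 2782 to 5122 and 2143 to 3937 for adipocytes. The part of a change in cell makeup in the differences of the other miRNAs was not tested.

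**Figure D3:**
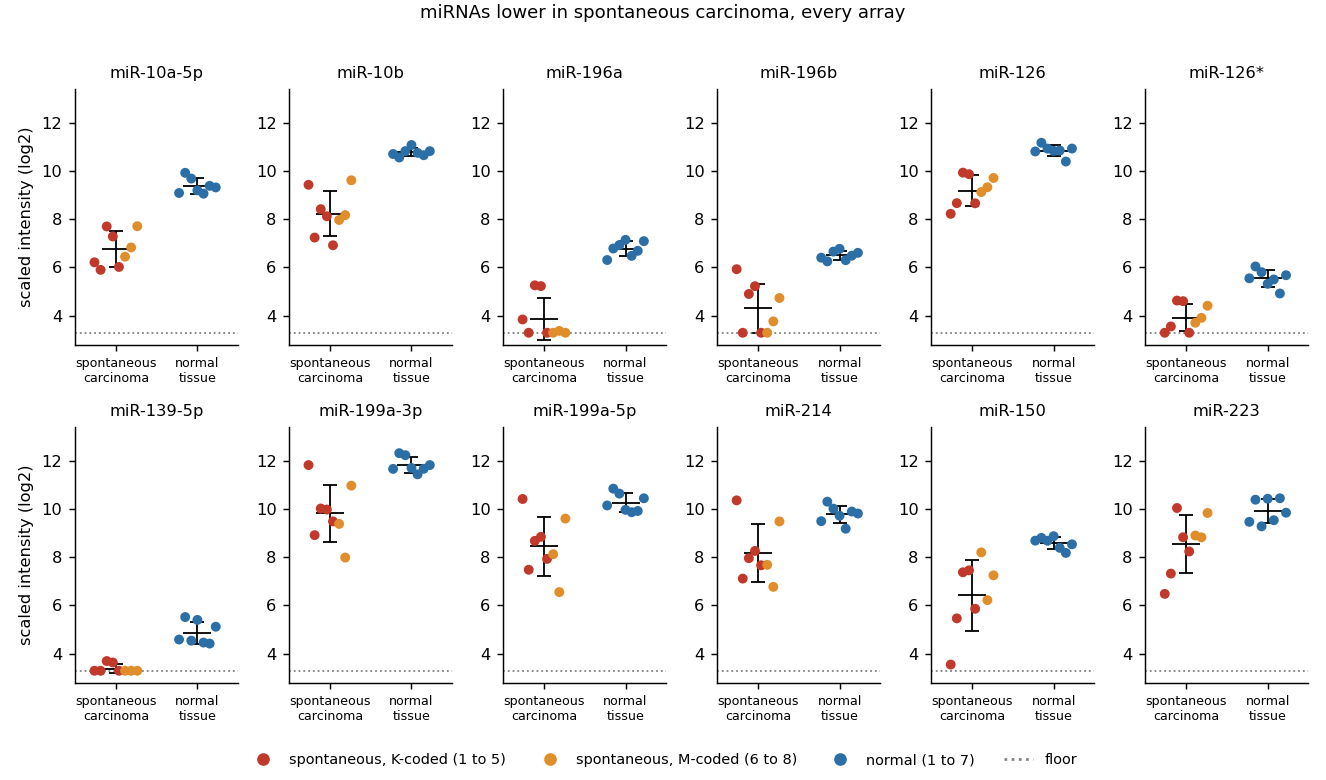
Scaled intensity (log2) on every array for 12 miRNAs that were lower in spontaneous carcinomas, drawn as in the plot of the rises. The top row holds miRNAs of the Hox clusters and of endothelial cells and the bottom row 1 further endothelial, 3 mesenchymal and 2 leukocyte miRNAs. In the top row every carcinoma lies below every normal tissue.

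Some miRNAs with the same seed went opposite ways. Of those with the seed AGCAGCA, known as regulators of the cell cycle, miR-15b and miR-16 rose and miR-195 and miR-497 fell. An arm of the miR-322 hairpin carries the seed as well in RefSeq, and neither miR-322 (-0.13 ± 0.45) nor miR-322* (0.19 ± 0.42) passed. miR-15b averaged 10.55 ± 0.43 in carcinomas (SD, n = 8) and 9.56 ± 0.32 in normal tissue (SD, n = 7), without overlap (0.99 ± 0.21, limma adjusted p = 0.000937). The rise of miR-16 was small, 0.41 ± 0.15 (adjusted p = 0.0371), and it was at -0.053 with the percentile over all probes. miR-195 had 7.18, 9.90 and 10.94 in carcinomas, against 10.72, 11.06 and 11.55 in normal tissue (-1.54 ± 0.42, adjusted p = 0.00578). Its neighbour miR-497 had nearly the same levels, 7.20, 9.98 and 11.06 in carcinomas, against 10.73, 11.02 and 11.51 in normal tissue (-1.47 ± 0.42). On the unscaled signal, where the median of all miRNAs was -0.98, miR-15b and miR-16 were at -0.36 and -0.94 and miR-195 at -2.89, so the order of the 2 pairs held but not the sign of the first.

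The seed ACCCGUA divided in the same way. miR-99b, whose gene neighbours those of let-7e and miR-125a, rose by 1.01 ± 0.16 (limma adjusted p = 7.45e-05), with carcinomas at 7.32 to 8.45 and normal tissues at 6.73 to 7.20. miR-100 fell by 1.31 ± 0.25 (adjusted p = 0.000278), with carcinomas at 5.75 to 7.10 and normal tissues at 7.39 to 8.43. Neither overlapped. Unscaled, miR-99b was at -0.34. miR-99a, of the same family, fell by 1.30 ± 0.38 and miR-125b-5p, whose genes neighbour those of miR-99a and miR-100, by 1.1 ± 0.29. Over the 8 tested miRNAs of these clusters 1 rose and 3 fell, with a median of -0.12, where 26.1% rose and 14.6% fell over all miRNAs tested.

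In the miR-130 family miR-130b rose by 2.50 ± 0.72 (limma adjusted p = 0.00811) and miR-301a by 1.67 ± 0.31 (adjusted p = 0.000278), while miR-130a was at 0.033 ± 0.27 (adjusted p = 0.938). The levels of miR-130b were 3.30, 5.95 and 10.05 in carcinomas, against 3.30, 3.37 and 4.22 in normal tissue, and the highest was that of spontaneous carcinoma 1. Without it miR-130b was at 1.94 and miR-301a at 1.37, and both passed. With the raised floor miR-130b did not pass (1.44, adjusted p = 0.0659).

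**Figure D4:**
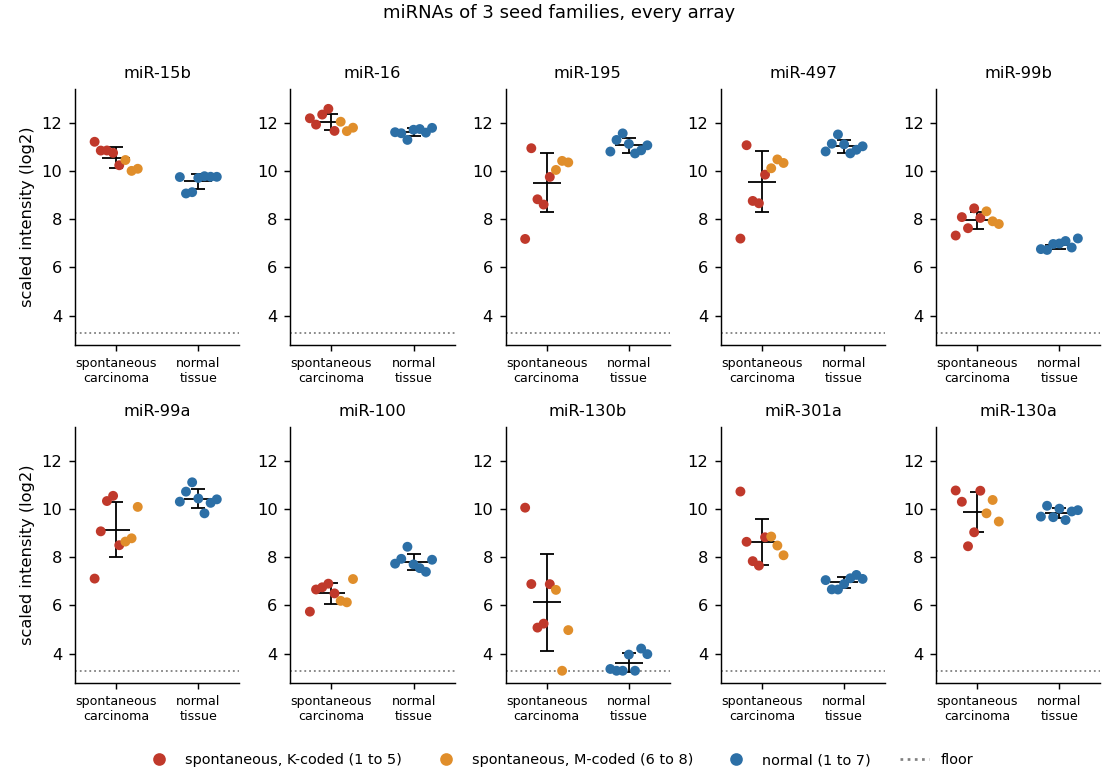
Scaled intensity (log2) on every array for 10 miRNAs of 3 seed families, drawn as in the plot of the rises. miR-15b, miR-16, miR-99b, miR-130b and miR-301a were higher in carcinomas, miR-195, miR-497, miR-99a and miR-100 were lower, and miR-130a did not pass the test.

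Among other groups, 2 of 5 miR-181 miRNAs rose (miR-181d by 1.26 ± 0.35 and miR-181c by 0.89 ± 0.32), where 26.1% rose over all miRNAs tested. Of 5 miRNAs abundant in neurons 4 rose, against 26.1% over all miRNAs tested, with a median of 0.80, which was -0.55 unscaled. Of these, miR-7a rose by 1.26 ± 0.23 and miR-128 by 0.75 ± 0.13. Of 10 let-7 miRNAs 3 rose, the other-arm forms let-7b* and let-7d* and the seed relative miR-98, a share near the 26.1% over all miRNAs, and the median was 0.052. let-7b* did not pass with the raised floor (0.27, adjusted p = 0.359). In the X-linked cluster from miR-322 to miR-450a, 2 of 7 rose with all arrays, again a share near 26.1%. Without spontaneous carcinoma 1, when 63 of the 199 miRNAs tested rose, 5 of the 7 did. The epithelial and sensory miR-182 and miR-183, at 1.57 ± 0.72 and 1.18 ± 0.77 with all arrays, passed without it (2.15 and 1.79). miR-96, of the same cluster, did not pass with or without that carcinoma (limma adjusted p = 0.074 without it). miR-29a, which targets collagens, fell by 0.92 ± 0.30, and miR-101a, which targets the histone methyltransferase Ezh2, by 1.19 ± 0.32. Of 11 miR-30 miRNAs miR-30c-2* alone passed, lower at -0.55 ± 0.18 (limma adjusted p = 0.0187) but with no difference once the floor was raised, and none of the 3 miR-34 miRNAs passed. miR-21, often high in carcinomas, was at 0.13 ± 0.37.

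Neighbouring miRNA genes moved alike where they moved. Of 19 groups of tested miRNAs whose genes lie within 10000 bases of one another on 1 strand, 6 held at least 2 that passed, and all 6 did so in 1 direction. They include miR-18a, miR-19a and miR-20a, miR-25 and miR-93, miR-181c and miR-181d, miR-195 and miR-497, and miR-23a and miR-27a, which fell by 0.74 ± 0.20 and 0.58 ± 0.19. Neighbours can share a transcript, so they are not separate observations.

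The carcinomas varied more among themselves than the normal tissues did. For 187 of 199 miRNAs the SD was larger over the carcinomas, with a median SD of 0.74, against 0.30 in normal tissue. The model uses 1 spread for all groups, so the standard errors may be too small for the carcinomas and too large for the normal tissues. With a separate weight for each group 80 miRNAs passed, 78 of them among the 81.

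The radiation-induced carcinomas were set against the same normal tissues, so their differences are not independent of those above and are given only side by side. For miR-10a-5p the difference from normal tissue was -2.61 in spontaneous and -2.24 in radiation-induced carcinomas, and for miR-10b it was -2.53 and -2.46. For miR-126 it was -1.65 in spontaneous and -1.26 in radiation-induced carcinomas. For miR-93 it was 2.07 and 1.28, and for miR-17-5p 1.94 and 0.97. For miR-195 and miR-497 it was -1.54 and -1.47 in spontaneous carcinomas, and -0.050 and 0.088 in radiation-induced ones. For miR-483 it was 3.72 in spontaneous and 1.07 in radiation-induced carcinomas.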

How the data were processed

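RNA labelled with Cy3 at the 3′ end, per the labels' protocols, was hybridised to 1-colour Agilent miRNA arrays. The scanner files the authors deposited hold spot intensity on a linear scale (Feature Extraction software 9.5.1.1, as their headers state), with background subtracted within each array and no scaling between arrays. The marks for signals well above background come from the same deposited files. The deposited value table, used as an alternative, holds the total gene signal of these arrays as intensity on a linear scale, with no scaling and a lowest value of 5.

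Control spots and outlier marks were left out, and the remaining spots were averaged into 938 probes. A probe was detected where most of its spots carried that mark, which held for 35.7% of probe values. Scaling therefore used the 75th percentile of the 199 probes that all 23 arrays detected. Signals were then floored at 9.82 (log2 3.30) and log2-transformed. Each miRNA is represented by its probe with the highest mean. The floor can understate differences of dim miRNAs. It can also overstate rises, because the lowest signal well above background was 12.0 to 29.7 on the carcinoma arrays and 3.90 to 9.56 on the normal ones. Carcinoma signals not well above background could thus count above the floor. Spontaneous carcinoma 4, for one, did not detect let-7b* but counted at 4.19. With the raised floor the rise of let-7b* went from 1.04 to 0.27.

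The tests came from limma 3.58.1 (R 4.3.3), fitted to all 23 arrays with a mean for each of the 3 groups (total degrees of freedom 22.5) and Benjamini-Hochberg adjustment over 199 miRNAs. The procedure was tested on simulated data with the same spread in every group and no difference in array brightness. Those data cannot show how it performs with the unequal spreads, the floor and the unequal brightness found here. A bound ("at least") sets the mean of the group that detected a miRNA against the detection limits, or the floor where higher, of the arrays of the group that did not. The text names the 12 largest rises and falls past the threshold, and miRNAs undetected in 1 group but detected in most of the other. For most lists discussed it names the members of smallest p (at most 4) or, where up to 6 were tested, every member. The epithelial lists and those given under other groups fall outside this rule, and not every member of them is given with a difference. The remaining names were chosen after their values were seen. Members and lists were chosen with earlier results of these data known. The arrays lie on 4 slides, each scanned on 1 day. Slides 1, 2 and 4 hold both groups. The number of arrays limits the precision. Alternatives covered scaling, background, floor, filter, probe summary, slide, array weights, brightness, carcinoma codes and each array left out. Gene neighbours and sequences come from RefSeq tables of GRCr8. The array design names build rn4, so no coordinates are given.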

Additional observations from a re-analysis of the deposited data

Results flagged for a closer look

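In 28 of 176 groups of arrays checked, the highest or lowest array stood further from the next than Dixon's 95% limit allows. That limit assumes normally distributed values, and many values here are floored. Where the rest of a group lies at the floor, any value above it is flagged. Groups that share an array are not independent either, so the count cannot be set against chance. Most of these values belong to spontaneous carcinoma 1. It lay at the floor, log2 3.30, for the 5 miR-200 miRNAs. The lowest of the other carcinomas had 12.20 for miR-200c, 11.59 for miR-141, 11.01 for miR-200b, 10.47 for miR-200a and 9.69 for miR-429. It was also the lowest carcinoma for miR-152 (5.35), miR-22 (9.22), miR-146a (6.57), miR-146b (5.34), miR-182 (3.30), miR-183 (3.98), miR-23a (10.37) and miR-322 (7.09). It was the highest for miR-363 (7.46, next 4.61), miR-18a (10.33), miR-301a (10.72), miR-484 (7.33) and miR-335 (6.34). The next carcinoma had 8.33, 8.86, 5.74 and 3.59 for the last 4. Among the other carcinomas, number 8 had miR-499 at 3.80 and number 7 had miR-29a* at 3.58, with the rest of the group at the floor.

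Of the normal tissues, number 3 was highest for miR-672 (8.11, next 6.91) and lowest for miR-142-3p (9.16, next 10.06) and miR-142-5p (5.85, next 6.49). It was also lowest for miR-331 (6.35, next 6.67). Normal tissue 5 was highest for miR-322* (6.59, next 5.71) and miR-340-5p (5.44, next 4.70). Normal tissue 2 had miR-1, a striated muscle miRNA, at 6.66, with the next at 4.46. Normal tissue 4 had miR-193* at 3.72, with the next at 3.38.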

How the results depend on the processing

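The 81 calls (52 higher, 29 lower) depended on the scaling and on the terms fitted. Higher calls numbered 25 with the percentile over all probes, 29 with quantile normalization, 27 centred on the median miRNA, 4 unscaled, 4 in the deposited table and 123 with normexp (145 calls in all). Lower calls numbered 57 with the percentile over all probes, 53 centred, 112 unscaled and 104 in the deposited table, and 19 among the 118 miRNAs detected on all 15 arrays, a filter which, like centring, was chosen after seeing the data. Within slide 2 limma made 28 calls (21 and 7), and within slides 1 and 4 it made 0 in all, 0 higher and 0 lower. Brightness as a covariate left 4 (1 and 3). With 1 array left out the calls ranged from 73 to 91, the higher ones from 46 to 63 and the lower ones from 26 to 31, and all 81 kept their direction each time. The difference in miRNAs detected per array, -30.6 over all slides, was -30.5, -45.2 and -18 within slides 1, 2 and 4, and that in the 75th percentile was -964, -1448 and -891. Within these slides the exact permutation test cannot go below p = 0.333, 0.1 and 0.25. No paired analysis was possible because the labels name no animal for the normal tissues.

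Of the 81 calls 29 changed sign unscaled, 26 in the deposited table and 7 with normexp. The sign changes of the miRNAs whose differences the text gives were as follows. Unscaled and in the deposited table they were miR-25 (-0.12 and -0.06), miR-15b (-0.36 and -0.23), miR-16 (-0.94 and -0.85), miR-139-3p (-1.07 and -1.05), miR-206 (-0.53 and -0.51), miR-146b (-0.97 and -0.91), miR-107 (-0.74 and -0.70), miR-103 (-0.82 and -0.77), miR-99b (-0.34 and -0.28), miR-130a (-1.32 and -1.28), miR-19b (-0.17 and -0.11), miR-128 (-0.60 and -0.54), miR-181c (-0.46 and -0.52), miR-181d (-0.085 and -0.078), miR-7a (-0.093 and -0.083), miR-98 (-0.71 and -0.64), miR-183 (-0.17 and -0.14), miR-331 (-0.84 and -0.78), miR-21 (-1.23 and -1.15), miR-322* (-1.16 and -1.23) and the median of the neuron-rich list (-0.55 and -0.50). Unscaled alone, let-7d* (-0.24), miR-20a* (-0.009) and miR-340-3p (-0.027) turned, and in the deposited table alone miR-363 (-0.38). With normexp they were miR-335 (0.11), miR-126* (0.28), miR-196c (0.51), miR-139-5p (0.42), miR-1 (0.50), miR-133b (0.22), miR-499 (0.57), miR-22* (0.63), miR-142-5p (0.39), miR-193* (0.52), miR-29a* (0.60), miR-30c-2* (0.62) and the endothelial median (0.35). With the percentile over all probes they were miR-16 (-0.053), miR-139-3p (-0.18), miR-146b (-0.086), miR-130a (-0.43), miR-21 (-0.34) and miR-322* (-0.27). With quantile normalization they were miR-139-3p (-0.038), miR-130a (-0.095), miR-21 (-0.053) and miR-322* (-0.33). Centred, they were miR-139-3p (-0.10), miR-146b (-0.0072), miR-130a (-0.35), miR-21 (-0.26) and miR-322* (-0.19). With the brightness covariate they were miR-466b (-0.033), miR-16 (-0.0023), miR-139-3p (-1.22), miR-206 (-0.022), miR-146b (-0.61), miR-183 (-0.31) and miR-21 (-0.52). With slide as a block miR-139-3p turned (-0.29), as did the median of the miR-200 list, none of which passed (-0.11, against 0.29 without the block). Within slide 1, miR-139-3p (-0.29), miR-146b (-1.28), miR-183 (-0.31) and miR-21 (-1.13) turned. Within slide 2, miR-142-3p (0.83), miR-142-5p (0.76), miR-322 (0.99) and miR-130a (-0.42) turned. Within slide 4, miR-1 (0.27), miR-133b (0.89), miR-322 (0.16) and miR-130a (-0.060) turned. With K-coded carcinomas alone miR-139-3p was at -0.32, miR-146b at -0.42 and miR-21 at -0.014, and with M-coded ones alone miR-142-5p was at 0.041. With the total gene signal miR-29a* was at 0.029. With 1 array left out miR-130a ranged from -0.094 to 0.24, miR-21 from -0.091 to 0.44 and miR-322 from -0.34 to 0.23. The cause of these changes was not tested.

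The dim carcinoma arrays limit what can be said of weak miRNAs, since 4 of the 52 higher calls were well above background in at most 4 of 8 carcinomas. Of the 81 calls 12 were lost when some single array of the 15 was left out. miR-22 was lost without any of 12 arrays, miR-335 of 11, miR-146a and miR-351 of 10, miR-16 and miR-181c of 7, miR-328 of 5 and miR-872 of 4. miR-103 was lost without normal tissue 2 or 3, let-7b* without spontaneous carcinoma 5 or 6, miR-214 without spontaneous carcinoma 2 or 7, and miR-331 without normal tissue 3 (adjusted p = 0.0543). With slide as a block let-7b*, miR-146a, miR-16 and miR-214 were among the calls lost, and with the 15 arrays alone 72 of the 81 remained.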
